A study of Mus musculus with 8 samples.

Results

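This is a comparison of 2 WT and 2 Mut-labelled total RNA libraries, chosen by the kind of library, 4 of the 8 libraries of the series; the other 4 were made from polyA-selected RNA (mRNA libraries). All came from mouse bone marrow, strain C57BL/6J, sorted as Flt3- LSK cells, the lineage-negative, Sca-1-positive, Kit-positive fraction in which blood stem cells and multipotent progenitors are found, with 24000 cells per sample. The WT mice had the genotype wild type and are described as Runx1f/f (the floxed gene, flanked by recombination sites), and the Mut mice had the genotype Runx1 deficient. The sources used here give no Cre driver, deleted part of the gene, age or treatment, and do not say whether the replicates were separate animals, so that p-values reflect only how these samples differ, in which technical differences may have a part. Synthetic ERCC spike-in RNA was added to the purified RNA, and the total RNA libraries were made in order to compare rRNA.

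Runx1 encodes a DNA-binding transcription factor that pairs with the partner protein made from Cbfb. It is needed for the first blood stem cells of the embryo, and in adult marrow it is known for its part in platelet production and lymphocyte development. A total RNA library is not restricted to polyadenylated transcripts, so that rRNA, histone transcripts and small nuclear and nucleolar RNA are counted beside messenger RNA.

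In the total RNA libraries the Mut-labelled cells had higher levels of many platelet-lineage genes and lower levels of several red cell genes. Genes of mast cells, basophils and eosinophils changed in both directions. Stem cell associated genes also split, with Mecom, Prdm16 and Hlf lower and Tek, Clca3a1 and Mllt3 higher. No ribosomal protein or ribosome biogenesis gene passed the test. Of 10546 genes tested with edgeR's quasi-likelihood test, 446 (4.23%) were called at a Benjamini-Hochberg adjusted p under 0.05, 269 (2.55%) higher and 177 (1.68%) lower in Mut-labelled libraries, and 1559 had an unadjusted p below 0.05. Levels are given in CPM, counts scaled to an equal number of gene counts per library, after TMM scaling, in the order WT replicate 1, WT replicate 2, Mut-labelled replicate 1, Mut-labelled replicate 2. Fold changes are Mut-labelled over WT. Groups that do not overlap are common with 2 libraries each: this held for 4636 of the 10546 genes (44.0%). The median change of all genes was 0 under TMM scaling and -1.10 when the libraries were scaled by ERCC counts, so that the changes below are shares of the gene RNA in a library and not amounts. Under ERCC scaling the split of calls was 13 higher and 360 lower (3.49% higher, against 60.3% under TMM).

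**Figure D1:**
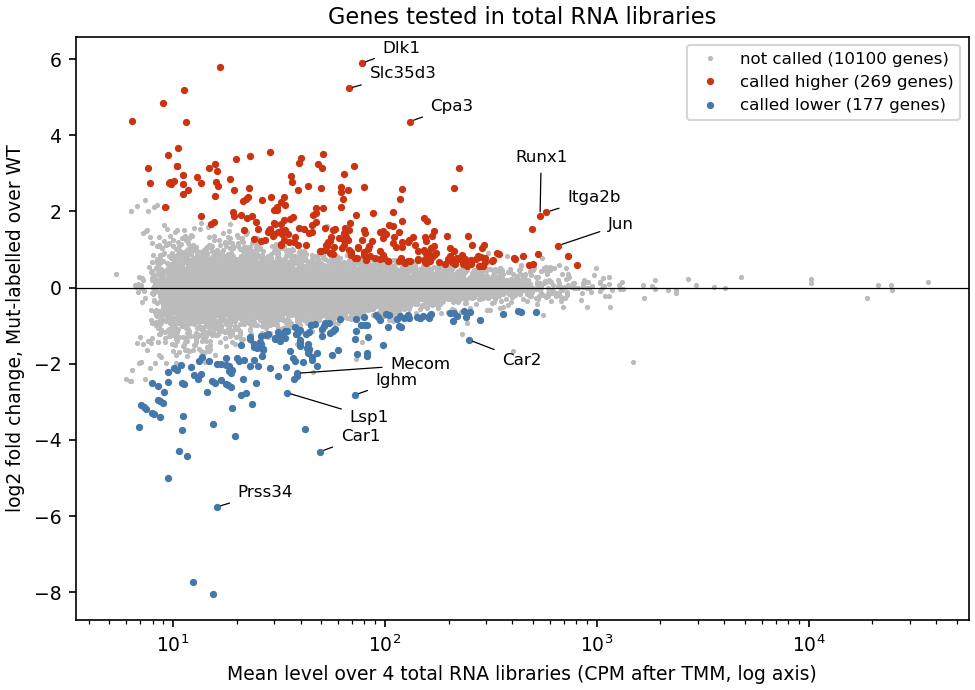
Each point is 1 of the 10546 genes tested, with its mean level over the 4 libraries (CPM, log axis) and its log2 fold change, Mut-labelled over WT. Red points are the 269 genes called higher and blue points the 177 called lower; the 2 lowest points, Myl10 and Cdcp1, had no counts in Mut-labelled libraries, so their height depends on the prior count.

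The libraries were even in depth. Counts assigned to genes ranged from 967694 to 1218437 per library, because rRNA took 93.3 to 94.5% of all counts, and 3 counts, the floor used here, corresponded to 2.47 to 3.17 CPM. The TMM factors lay between 0.978 and 1.01. Replicates of a group differed beyond sampling noise (chi-square per degree of freedom 3.13 for WT and 2.60 for Mut-labelled libraries), so none was counted as a repeated deposit. Of the markers of the sort, Kit stood at 644, 689, 800 and 818 CPM and Flt3 at 72.6, 107, 49.7 and 60.0 CPM. Neither was called (edgeR adjusted p = 0.426 and 0.124). Ly6a, which encodes Sca-1, was at 18.1, 26.6, 26.4 and 12.3 CPM (19, 27, 25 and 15 counts), a low level for a marker of the gate. Its neighbours Ly6c1 and Ly6c2 are related genes. Ly6c1 had 0 counts in each library and Ly6c2 had 11, 5, 5 and 0 counts. Whether reads were split or lost among these genes was not tested. Transcripts of cells that the gate should leave out were present in part. Of 5 markers of T cells and NK cells, Cd3g, Cd8a and Ncr1 had 0 or 1 count in each library, Cd3e had 4, 2, 1 and 2 counts and Nkg7 had 35, 28, 7 and 19 counts; immunoglobulin and mature neutrophil transcripts were counted in all 4, as described with their lists.

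Runx1 itself was higher in the Mut-labelled libraries. Its level was 228 and 234 CPM in WT against 808 and 888 CPM in the Mut-labelled libraries, 231 ± 4.28 against 848 ± 56.6 (SD, n = 2 each). The log2 fold change was 1.88 (SE 0.16, edgeR adjusted p = 5.59e-07), or 0.78 under ERCC scaling (edgeR adjusted p = 0.257). The direction goes against a label of deficiency, but counts summed over all exons do not show whether some exons were deleted, and every direction here rests on the labels. Runx3, a second Runx factor, rose from 201 and 247 to 349 and 322 CPM (log2 fold change 0.58, SE 0.16, edgeR adjusted p = 0.0487). That call was lost without WT replicate 1 or either Mut-labelled replicate (edgeR adjusted p = 0.348, 0.179 and 0.0922), and under ERCC scaling the change turned to -0.47. Runx2 (0.43), the partner gene Cbfb (0.08) and the co-repressor genes Cbfa2t2 (0.09) and Cbfa2t3 (0.21) were not called (edgeR adjusted p = 0.374 to 0.924).

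Platelet-lineage genes made up the largest group of rises. Of 26 tested genes of megakaryocytes, the cells that shed platelets, 11 rose and 1 fell, with a median log2 fold change of 0.60. The median turned to -0.54 under ERCC scaling, where 2 of the 26 were called higher (Slc35d3 and Treml1). In RNA from a pool of cells, more cells of a type and more RNA per cell cannot be told apart, here and in the lists that follow. Itga2b, the alpha chain (CD41) of the platelet integrin that binds fibrinogen and the called member of the highest level, was at 220 and 247 CPM in WT against 912 and 935 CPM in Mut-labelled libraries, a 3.96-fold rise (edgeR adjusted p = 2.62e-07). Its partner subunit gene Itgb3, named after its values were seen, was at 53.5, 59.1, 160 and 121 CPM (log2 fold change 1.31). Gp5, part of the receptor for von Willebrand factor, was at 19.1, 24.6, 156 and 118 CPM, a 6.27-fold rise.

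Treml1, a receptor stored in platelet granules, rose 8.93-fold from 11.5 and 8.86 to 107 and 74.8 CPM. The C-type lectin receptor gene Clec1b had 0 and 3.94 CPM in WT against 21.1 and 16.4 CPM in Mut-labelled libraries (log2 fold change 3.19, edgeR adjusted p = 0.0115), a call lost without WT replicate 1 or Mut-labelled replicate 1 (edgeR adjusted p = 0.0777 and 0.11). The groups did not overlap for any of these receptors, nor for 44.0% of all genes tested. Slc35d3, needed to form the dense granules, was at 2.86 and 3.94 CPM in WT against 136 and 127 CPM in Mut-labelled libraries, a 38.7-fold rise (edgeR adjusted p = 1.13e-08). Rab27b, a small GTPase of granule release, rose 3.27-fold from 14.3 and 13.8 to 50.7 and 41.1 CPM.

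The other called members, named after their values were seen, were Plek (log2 fold change 1.48), Selp (1.5), Lat (1.41) and Thbs1 (1.0); Thbs1 lost its call without WT replicate 2 or Mut-labelled replicate 1 (edgeR adjusted p = 0.125 and 0.176). Vwf, the clotting factor that megakaryocytes and endothelial cells make, was the 1 member that fell, from 129 and 147 to 85.6 and 50.1 CPM (log2 fold change -1.04, edgeR adjusted p = 0.00862, and 0.175 without Mut-labelled replicate 2). Pf4, the platelet chemokine gene, was at 17.2, 10.8, 10.6 and 4.93 CPM and Gp9 at 12.4, 7.87, 14.8 and 16.4 CPM, neither called (edgeR adjusted p = 0.494 and 0.616). Ppbp, another late platelet gene, had at most 8.45 CPM and was too low to test. The transcription factor genes of the lineage, Gata1 (-0.15) and Fli1 (0.39), named after their values were seen, and Zfpm1 (-0.08), were not called (edgeR adjusted p = 0.319 to 0.889).

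Red cell genes were lower. Of 18 tested erythroid genes 6 fell and 0 rose, 9 had an unadjusted p below 0.05, and the median log2 fold change was -0.90 (-0.55 if WT replicate 1 was left out and -1.53 if Mut-labelled replicate 1 was). The number of falls was 6 to 9 in each alternative setting, including ERCC scaling (9, median -1.92). The carbonic anhydrase gene Car2 was the most abundant of them, at 365 and 354 CPM in WT against 142 and 136 CPM in Mut-labelled libraries (log2 fold change -1.37, SE 0.16, edgeR adjusted p = 1.91e-05). Car1, a second carbonic anhydrase gene, was at 98.3 and 89.6 CPM against 4.23 and 4.93 CPM, a 20.5-fold fall. Klf1, the master transcription factor gene of the red lineage, was at 45.8, 47.2, 14.8 and 7.40 CPM, a 4.19-fold fall.

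Genes of the red cell membrane fell too: Ank1, which anchors the membrane skeleton, was at 62.1, 57.1, 14.8 and 16.4 CPM (log2 fold change -1.92). The erythroblast membrane protein gene Ermap was at 60.1, 68.9, 9.51 and 15.6 CPM (-2.32), and the water and glycerol channel gene Aqp9 at 24.8, 35.4, 8.45 and 2.47 CPM (-2.52). All 6 had both Mut-labelled libraries below both WT libraries. This adds little to their calls, since the groups were apart, in either direction, for 44.0% of all genes tested. The erythropoietin receptor gene Epor (log2 fold change -0.48, edgeR adjusted p = 0.627) and Tal1, a transcription factor gene shared with stem cells (0.22), were not called. Globin genes were too low to test, with Hba-a1 at no more than 5.28 CPM and Hbb-bs at no more than 13.4 CPM in any library.

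**Figure D2:**
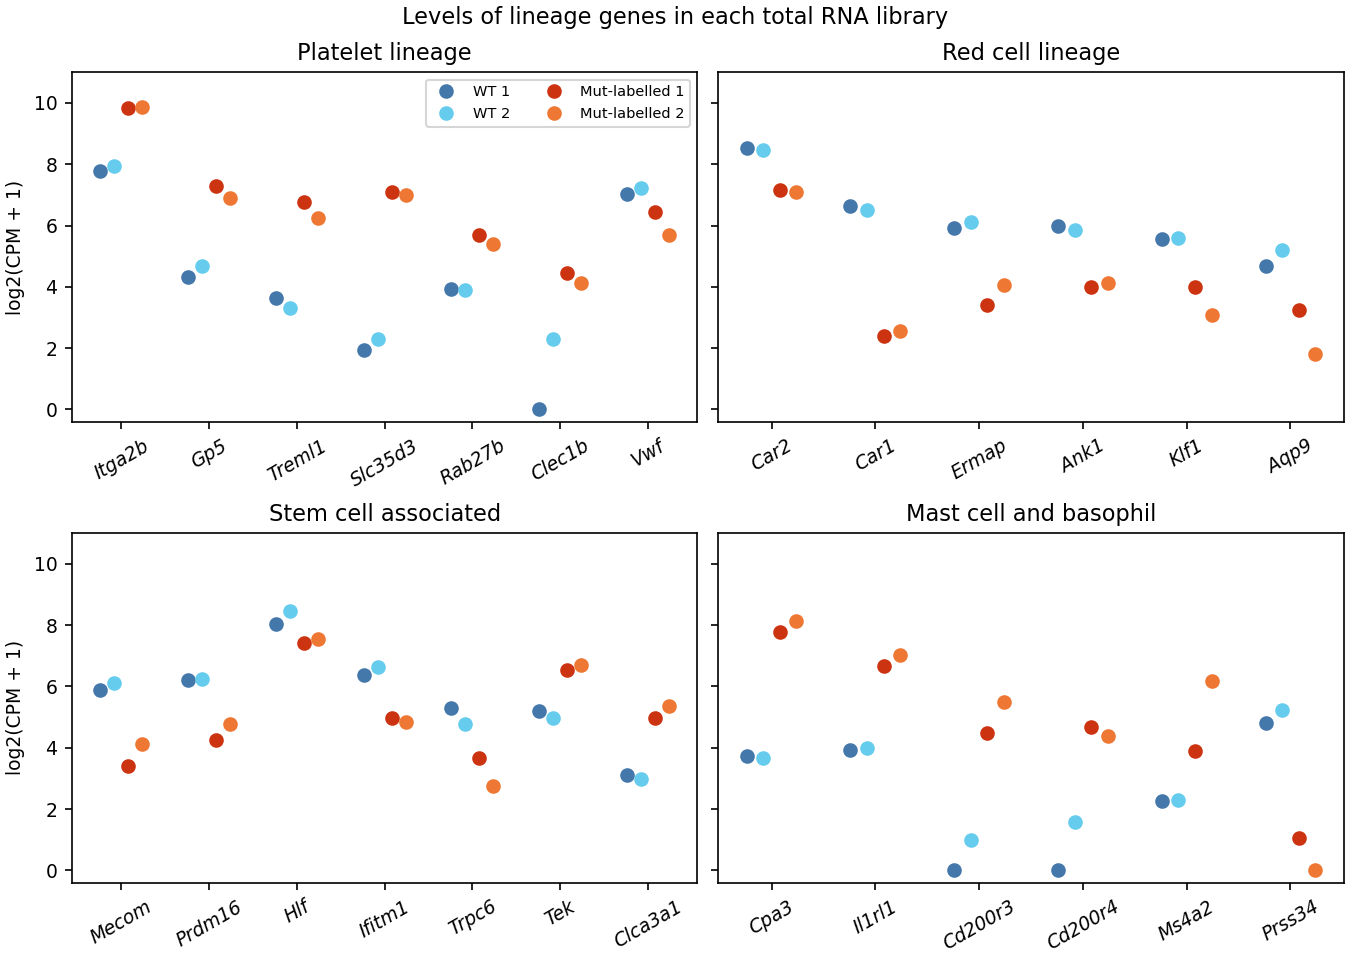
Each point is the level of a gene in 1 total RNA library, as log2(CPM + 1); blue points are WT and red and orange points Mut-labelled libraries. Only called members of the lists are shown. Of these, the platelet genes except Vwf sit higher and the red cell genes lower in both Mut-labelled libraries. The stem cell and the mast cell and basophil panels hold genes that move each way. Over the whole lists, 7 of 26 tested platelet genes had a change below 0 and 3 of 18 tested red cell genes a change above 0.

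Stem cell associated genes split. Of 39 tested, 4 rose and 6 fell, with a median log2 fold change of -0.03; without WT replicate 2 the rises were 7. Mecom, which encodes the zinc finger factor EVI1 that stem cells depend on, was at 58.2 and 68.9 CPM in WT against 9.51 and 16.4 CPM in Mut-labelled libraries, a 4.90-fold fall (edgeR adjusted p = 0.00021). The related gene Prdm16 was at 72.6, 74.8, 18 and 26.3 CPM, a 3.33-fold fall. Hlf, another factor gene of the stem cell state, was at 260, 350, 168 and 187 CPM (log2 fold change -0.78, edgeR adjusted p = 0.0106, and 0.137 without WT replicate 2). Ifitm1, an interferon-induced membrane protein gene, fell from 82.1 and 99.4 to 30.6 and 27.9 CPM, and the calcium channel gene Trpc6 from 38.2 and 26.6 to 11.6 and 5.75 CPM. Trpc6 lost its call without WT replicate 1 or Mut-labelled replicate 2 (edgeR adjusted p = 0.0767 and 0.102). Lmo2, a bridging protein gene of blood transcription factors named after its values were seen, was at 458, 610, 302 and 385 CPM (log2 fold change -0.63, edgeR adjusted p = 0.0491), a call lost without WT replicate 2 (0.334) or Mut-labelled replicate 1 (0.267).

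The rises were in other genes of the list. Tek, the angiopoietin receptor gene of stem and endothelial cells, was at 35.3 and 30.5 CPM in WT against 90.9 and 104 CPM in Mut-labelled libraries, a 2.95-fold rise. Clca3a1 rose 4.88-fold from 7.64 and 6.89 to 30.6 and 40.3 CPM. Mllt3 (log2 fold change 0.94), named after its values were seen, encodes a nuclear factor known from stem cell maintenance and lost its call without Mut-labelled replicate 2 (edgeR adjusted p = 0.0745). Gata2, a factor gene of stem cells and mast cells named after its values were seen, was at 399, 415, 398 and 515 CPM and was not called (edgeR adjusted p = 0.722). Cd34 (0.28) and Slamf1 (0.73) were not called (edgeR adjusted p = 0.490 and 0.528). Procr, a stem cell surface marker, was too low to test, at 9.55 and 17.7 CPM in WT against 6.34 and 4.11 CPM in Mut-labelled libraries. Under ERCC scaling 5 of the 39 were called lower and 0 higher (median -1.03).

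Genes of mast cells, basophils and eosinophils changed in both directions. Of 12 tested, 7 rose and 3 fell, with a median log2 fold change of 1.82 (0.71 under ERCC scaling). The median turned to -1.60 when low counts were not filtered, with 7 rises and 3 falls as before, and to -0.90 with all 8 libraries in 1 fit, with 6 rises and 1 fall. Cpa3, the carboxypeptidase of mast cell granules, was at 12.4 and 11.8 CPM in WT against 218 and 281 CPM in Mut-labelled libraries, a 20.6-fold rise (edgeR adjusted p = 3.62e-09). Il1rl1, the interleukin-33 receptor gene, rose 7.86-fold from 14.3 and 14.8 to 100 and 128 CPM. Csf2rb, the shared receptor subunit gene of interleukin-3, interleukin-5 and GM-CSF, rose 3.56-fold. Hdc, which makes histamine and was named after its values were seen, rose by 1.80 on the log2 scale.

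The activating receptor genes Cd200r3 and Cd200r4 were near the floor in WT. Cd200r3 had 1 count in the WT libraries together, 70.6 times fewer per gene count than the Mut-labelled libraries (95% counting interval 12.3 to 2830). Cd200r4 had 2 counts there, a ratio of 22.4 (interval 5.87 to 191). Ms4a2, a subunit gene of the IgE receptor, was at 3.82, 3.94, 13.7 and 70.7 CPM, so that the 2 Mut-labelled libraries differed widely from each other; its call was lost without replicate 2 of that group (edgeR adjusted p = 0.588).

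The falls were in granule genes of basophils and eosinophils. Prss34, a basophil protease gene, was at 26.7 and 36.4 CPM in WT and had a single count over both Mut-labelled libraries, which puts WT over Mut-labelled at 68.1 (95% counting interval 11.8 to 2730). Epx (37.2, 35.4, 3.17 and 9.86 CPM) and Prg2 (53.5, 76.8, 14.8 and 27.1 CPM), named after their values were seen, encode an eosinophil peroxidase and granule protein. Mcpt8, a second basophil protease gene, was too low to test, at 3.82 and 5.91 CPM in WT against 0 and 0.822 CPM in Mut-labelled libraries.

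Upstream sequences are given for 4 genes of these lineages that moved in opposite directions, chosen after the motif search because each holds a match: the mast cell and platelet genes Cpa3 and Gp5, which rose, and the red cell and basophil genes Klf1 and Prss34, which fell. Each is the 250 bases before the annotated start, written 5′ to 3′ on the gene's strand, from RefSeq on GRCm38.p6. That build differs from the mm9 build of the counts, so these positions were not used with the counts. The places are chr3:20242182-20242431 (minus strand) for Cpa3, chr16:30310782-30311031 (minus) for Gp5, chr8:84901732-84901981 (plus) for Klf1 and chr17:25298144-25298393 (plus) for Prss34. Capitals mark matches to the Runx motif TGTGGT or TGCGGT, or to the GATA motif AGATAA or TGATAA, on either strand.
Cpa3: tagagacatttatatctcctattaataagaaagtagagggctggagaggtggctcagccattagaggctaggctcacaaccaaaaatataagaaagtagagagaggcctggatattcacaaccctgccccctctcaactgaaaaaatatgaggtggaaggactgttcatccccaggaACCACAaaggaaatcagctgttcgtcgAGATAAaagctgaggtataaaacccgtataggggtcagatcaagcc
Gp5: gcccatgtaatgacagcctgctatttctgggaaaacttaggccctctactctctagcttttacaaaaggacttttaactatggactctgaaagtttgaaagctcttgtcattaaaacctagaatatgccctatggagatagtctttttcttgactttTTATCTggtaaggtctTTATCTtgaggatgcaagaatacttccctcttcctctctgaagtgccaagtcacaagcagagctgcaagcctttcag
Klf1: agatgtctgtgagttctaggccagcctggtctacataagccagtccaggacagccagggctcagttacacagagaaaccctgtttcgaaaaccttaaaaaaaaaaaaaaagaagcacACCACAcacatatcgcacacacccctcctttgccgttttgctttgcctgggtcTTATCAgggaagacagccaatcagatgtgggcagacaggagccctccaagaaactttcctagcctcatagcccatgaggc
Prss34: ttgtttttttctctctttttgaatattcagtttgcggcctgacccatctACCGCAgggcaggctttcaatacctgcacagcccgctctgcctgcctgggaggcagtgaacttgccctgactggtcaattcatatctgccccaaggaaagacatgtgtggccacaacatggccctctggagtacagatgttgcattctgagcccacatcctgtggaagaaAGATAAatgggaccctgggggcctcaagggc
Cpa3, Klf1 and Prss34 each held a match to both motifs, and Gp5 held 2 GATA matches and no Runx match.

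Over all promoters of called genes such matches were not rare. A Runx match was found in 55 of 285 promoters of genes called higher (19.3%), in 23 of 162 of genes called lower (14.2%), in 17.4% of promoters of all tested genes and in 18.6% of all promoters in the table. A GATA match was found in 15.8%, 15.4%, 9.06% and 16.6%. The table held 205 of the 269 genes called higher and 124 of the 177 called lower, some with several starts. A match describes the letters only, and no match says nothing about binding elsewhere.

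Genes of granulocyte and monocyte progenitors rose in part. Of 19 tested, 5 rose and 0 fell (median 0.15, -0.11 without Mut-labelled replicate 1, and -0.85 with 0 called under ERCC scaling). The 5 were mostly cytokine receptor genes: besides Csf2rb, its close copy Csf2rb2 was at 12.4, 26.6, 78.2 and 86.3 CPM (log2 fold change 2.08), with reads possibly split between the 2 copies. Csf3r, the receptor gene for granulocyte colony-stimulating factor, was at 117 and 127 CPM in WT against 217 and 238 CPM in Mut-labelled libraries, a 1.86-fold rise. F13a1, a clotting factor subunit gene of monocytes and platelets, was at 14.3, 23.6, 123 and 28.8 CPM (log2 fold change 1.95, edgeR adjusted p = 0.0222), with most of the rise in Mut-labelled replicate 1 and the call lost without that library (edgeR adjusted p = 0.659). The granule enzyme genes that define these progenitors were not called: Mpo, the most abundant, was at 917, 1070, 1340 and 829 CPM and Elane at 62.1, 65.0, 70.8 and 32.9 CPM (edgeR adjusted p = 0.836 and 0.696).

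Several mature neutrophil transcripts were higher in the Mut-labelled libraries although the sort is meant to remove such cells. The 6 members that could be tested rose, among them S100a8 (4.77, 2.95, 40.2 and 15.6 CPM), S100a9 (3.82, 6.89, 57.1 and 9.86 CPM), which encode the calprotectin subunits, and the iron-binding granule protein gene Ltf (3.82, 5.91, 33.8 and 19.7 CPM). Lcn2, another granule protein gene, was at 1.91, 2.95, 24.3 and 15.6 CPM and the chemokine receptor gene Cxcr2 at 2.86, 2.95, 31.7 and 25.5 CPM. Mmp9, the gelatinase gene, had 1 count in the WT libraries together, a ratio of 35.3 (95% counting interval 5.95 to 1430). The members that passed the filter on low counts were those with counts in the Mut-labelled libraries, so their number is no measure of the other 10. Among neutrophil markers too low to test, Ngp was at 8.59, 6.89, 26.4 and 7.40 CPM, so that its groups overlapped. Camp (3.82, 2.95, 15.8 and 8.22 CPM) and Retnlg (0, 0, 9.51 and 1.64 CPM) were higher in both Mut-labelled libraries. The summed level of the list of 16 was 31.5 and 35.4 CPM in WT against 312 and 127 CPM in Mut-labelled libraries, and DESeq2 called 2 of the 6 and the fit without Mut-labelled replicate 1 called 1. Without that library S100a8, S100a9, Ltf, Lcn2 and Mmp9 lost their calls (edgeR adjusted p = 0.327, 0.827, 0.183, 0.183 and 0.0614). Without Mut-labelled replicate 1 the median log2 fold change was -0.11 for the progenitor list and 1.93 for the mast cell list, against 0.15 and 1.82 with all 4 libraries.

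Among B cell and plasma cell transcripts, Igkc and Jchain differed as much within as between groups, whereas Ighm and Cd72 were lower in both Mut-labelled libraries. Igkc, the antibody kappa chain gene, was at 319 and 4400 CPM in WT against 204 and 1010 CPM in the Mut-labelled libraries, and Jchain at 88.8, 1140, 51.8 and 330 CPM. Both were higher in replicate 2 of each group, and neither was called (edgeR adjusted p = 0.143 and 0.232). Of 8 tested members 0 rose and 2 fell. Ighm, the IgM heavy chain gene, was at 154, 98.4, 23.2 and 13.1 CPM, a 6.93-fold fall, and the B cell receptor gene Cd72 at 18.1, 12.8, 2.11 and 1.64 CPM. Cd72 lost its call without WT replicate 1 or either Mut-labelled replicate (edgeR adjusted p = 0.237, 0.0783 and 0.165), and Ighg2b without WT replicate 2 (0.0747). Ighm did not follow Igkc across the libraries. Ighg2b (23.9, 134, 0 and 10.7 CPM) was among the largest falls, and Ighg2c, named after its values were seen, was at 24.8, 60.0, 1.06 and 8.22 CPM. Of the T cell and NK cell genes 3 of 28 could be tested; Lat, which platelets also express, rose, and Nkg7 had a log2 fold change of -1.35 (edgeR adjusted p = 0.0723). Of 5 tested macrophage and dendritic cell genes, edgeR and DESeq2 each called 0 (3 had an unadjusted edgeR p below 0.05); edgeR gave 1 rise and 2 falls without WT replicate 1, 1 rise without Mut-labelled replicate 1 and 1 fall without Mut-labelled replicate 2.

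Of 14 early lymphoid genes 2 rose and 2 fell. Lsp1, an actin-binding protein gene of lymphocytes and other leukocytes, was at 54.4 and 65.9 CPM in WT against 9.51 and 8.22 CPM in Mut-labelled libraries, a 6.79-fold fall. Notch1, the receptor gene of T lineage choice, was at 158, 162, 80.3 and 75.6 CPM, a 2.05-fold fall. Ikzf2, a zinc finger factor gene, was at 83.1, 112, 155 and 224 CPM and rose; its call was lost without Mut-labelled replicate 2 (edgeR adjusted p = 0.146). Of 12 stromal and endothelial genes Tek and Kdr rose and Vwf fell, with 5 falls without WT replicate 2 or Mut-labelled replicate 1. Kdr, a receptor gene for vascular endothelial growth factor, was at 11.5, 2.95, 40.2 and 33.7 CPM, while the endothelial gene Cdh5 was at or below 7.64 CPM and the collagen gene Col1a1 at 58.2, 45.3, 93.0 and 3.29 CPM.

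The genes with the largest rises held several outside the lineage lists. Dlk1, whose membrane protein resembles the Delta-type ligands of Notch, was at 2.86 and 1.97 CPM in WT against 227 and 78.9 CPM in Mut-labelled libraries, a 63.3-fold rise (edgeR adjusted p = 2.43e-06). Nrg3, a growth factor gene, had 1 count in the WT libraries together, a ratio of 43.9 (95% counting interval 7.49 to 1770). The complement gene C4b had 3, a ratio of 13.7 (interval 4.38 to 68.9), and lost its call without Mut-labelled replicate 2 (edgeR adjusted p = 0.0779). The adhesion gene Jam3 was at 4.77, 8.86, 76.1 and 70.7 CPM, the guidance receptor gene Robo3 at 12.4, 3.94, 96.2 and 92.9 CPM, the transcription factor gene Sox5 at 6.68, 1.97, 52.8 and 53.4 CPM and the myosin kinase gene Mylk3 at 2.86, 3.94, 30.6 and 41.9 CPM. The 2 Mut-labelled libraries of Dlk1 stood far apart from each other, and those of Robo3, Jam3 and Sox5 close together.

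The largest falls included 2 genes with no count in either Mut-labelled library. Myl10, a myosin light chain gene, was at 42.0 and 19.7 CPM in WT, at least 10.9-fold lower against the floor of 3 counts per library, and the membrane protein gene Cdcp1 was at 15.3 and 34.4 CPM, at least 8.82-fold lower. Serpinf1, which encodes a secreted serpin, was at 38.2, 34.4, 5.28 and 0 CPM, the interleukin-1 receptor gene Il1r1 at 25.8, 31.5, 1.06 and 3.29 CPM, the RNA-binding protein gene Khdrbs3 at 21.0, 19.7, 1.06 and 2.47 CPM and the zinc finger gene Zfp827 at 35.3, 32.5, 5.28 and 2.47 CPM. Tox, a factor gene of lymphoid development, and the adenylate kinase gene Ak4 each had 2 counts in the Mut-labelled libraries, with WT levels 24.1 and 22.0 times as high (95% counting intervals 6.31 to 205 and 5.73 to 188). Mn1, a transcriptional co-regulator gene, had 3, a ratio of 14.7 (4.69 to 74.0). Ak4 lost its call without WT replicate 2 and Mn1 without Mut-labelled replicate 2 (edgeR adjusted p = 0.0728 and 0.0542).

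Among abundant called genes, Apoe, the lipid carrier apolipoprotein E, was at 247 and 257 CPM in WT against 670 and 809 CPM in Mut-labelled libraries, a 2.93-fold rise. Cdk6, a cell cycle kinase gene, rose 1.77-fold from 542 and 510 to 856 and 1010 CPM. Ccnd2, a cyclin gene that acts with it, fell from 294 and 323 to 214 and 181 CPM. These were the 2 called of 43 cell cycle genes, where 4.23% of all genes tested were called. The proliferation marker Mki67 (546, 651, 761 and 789 CPM) was not called (edgeR adjusted p = 0.249). Mdga1, which encodes a membrane-anchored adhesion protein, rose from 291 and 454 to 574 and 784 CPM, a call lost without WT replicate 1 or Mut-labelled replicate 2 (edgeR adjusted p = 0.143 and 0.0696). The smaller rises of the growth factor gene Tgfb1 (log2 fold change 0.60), Dgkz (0.62) and H3f3b (0.59) turned below 0 under ERCC scaling, at -0.49, -0.52 and -0.49. Ccnd2 lost its call without WT replicate 2 or Mut-labelled replicate 2 (edgeR adjusted p = 0.101 and 0.294). Tgfb1 lost it whichever library was left out (0.0726 to 0.14), Dgkz without any but Mut-labelled replicate 1 (0.0601 to 0.452) and H3f3b without WT replicate 1 or Mut-labelled replicate 2 (0.304 and 0.0933).

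Of 24 immediate early genes, which cells switch on quickly after a stimulus, 3 rose and 0 fell, 15 had an unadjusted p below 0.05, and the median was 0.51 (-0.57 under ERCC scaling). Jun was at 302, 534, 886 and 903 CPM (log2 fold change 1.10, SE 0.20, edgeR adjusted p = 0.0021), and the growth-inhibitory genes Btg2 (1.47) and Btg1 (0.64) also rose, Btg1 with its call lost without either replicate 2 (edgeR adjusted p = 0.145 without that of WT and 0.529 without that of Mut-labelled libraries). Fos was at 152, 669, 571 and 825 CPM and was not called (edgeR adjusted p = 0.342). WT replicate 1 was the lowest library for both Jun and Fos and for the summed list, at 2950 CPM against 5490, 5440 and 6880 CPM. Without that library the list held 3 rises and 3 falls (median 0.08), and without WT replicate 2 or Mut-labelled replicate 1 it held 12 and 11 rises.

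Other response lists held 1 to 3 calls each, where 4.23% of all genes tested were called. These few calls describe single genes and not their lists. Of 26 NF-kB and Toll-like receptor genes, Bcl3 (log2 fold change 1.33) and Tnfaip3 (1.24), both regulators of that pathway, rose and Tnfaip2 (-1.35) fell. Of 28 p53 targets Btg2 and the apoptosome gene Apaf1 (0.83) rose, with Trp53 itself at 0.22; without WT replicate 2 there were also 3 falls. Asns, the asparagine synthetase gene, was the 1 of 27 unfolded protein response genes that fell (-1.40), Oas2 the 1 of 25 interferon-responsive genes that rose (1.91), and Tert, the telomerase gene, the 1 of 32 MYC network and MYC-responsive genes that fell (-2.22, edgeR adjusted p = 0.0455). Tert lost its call whichever library was left out (edgeR adjusted p = 0.0569 to 0.404), Asns without WT replicate 1 (0.346) and Apaf1 without WT replicate 1 or Mut-labelled replicate 2 (0.094 and 0.113).

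**Figure D3:**
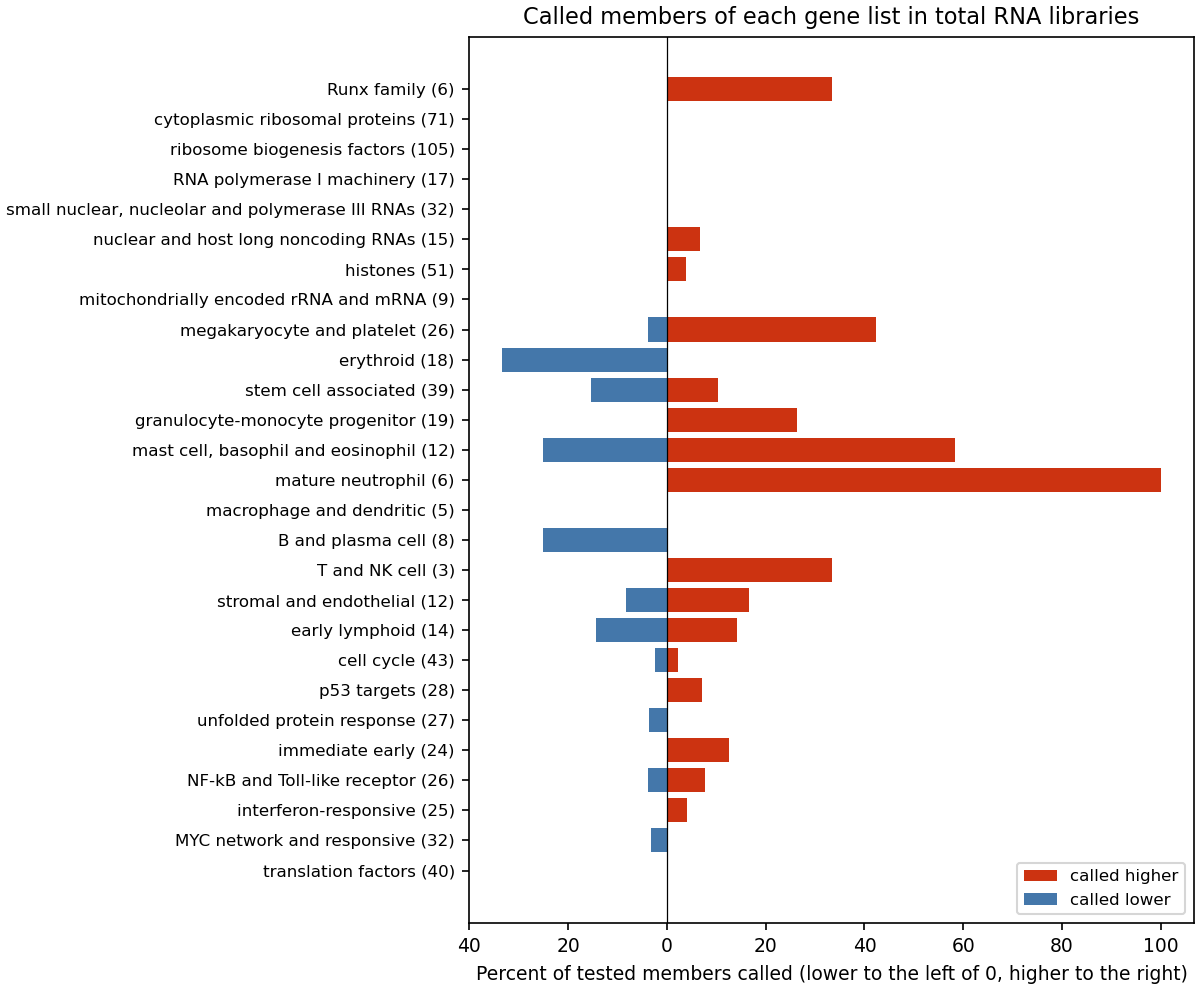
Bars give the percent of tested members of each list (their number in brackets) that were called higher (red, to the right of 0) or lower (blue, to the left) in Mut-labelled libraries. Over all genes tested the background was 2.55% called higher and 1.68% called lower. The platelet list has a long red bar and the erythroid list a long blue bar, and the ribosome lists have none. The mast cell list has a red and a blue bar. The neutrophil bar covers only the 6 of 16 members that passed the filter on low counts through their Mut-labelled counts and cannot be read against that background. Nor can the mast cell bars, which cover 12 of 24 members. Cd200r3 and Cd200r4 passed through their Mut-labelled counts and Prss34 through its WT counts. The platelet and erythroid bars have the same limit, with 26 of 32 and 18 of 31 members tested. Slc35d3 and Clec1b passed through their Mut-labelled counts and Car1 and Aqp9 through their WT counts.

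The question that the labels attach to total RNA is the level of rRNA. None of the genes of the ribosome or of its assembly passed the edgeR test with TMM scaling and no block. Of 71 cytoplasmic ribosomal protein genes 0 were called, with 3 at an unadjusted p below 0.05, 31 positive and 40 negative and a median log2 fold change of -0.03 (-1.12 under ERCC scaling). The list summed to 12300, 11200, 11800 and 11100 CPM. Its most abundant members, Rps3 (1250, 1220, 1340 and 1270 CPM) and Rpl4 (1390, 1220, 1350 and 1190 CPM), had changes of 0.07 and -0.04; the groups were apart for Rps3 and overlapped for Rpl4, and neither was called. Of 105 ribosome biogenesis factors 0 were called (6 at an unadjusted p below 0.05), with 37 positive and 68 negative and a median of -0.06; the nucleolar genes Ncl and Mybbp1a each stood at -0.14 (edgeR adjusted p = 0.765 and 0.788). Of 17 genes of the RNA polymerase I machinery, which transcribes the rRNA genes, 0 were called (1 at an unadjusted p below 0.05), with a median of -0.10; its factor gene Ubtf had a change of -0.08 and its subunit gene Polr1a of -0.18. DESeq2 called none of these 3 lists either. With a replicate block edgeR called 1 gene lower in each of the 3. Under ERCC scaling 1 polymerase I gene was called lower, and the medians of the biogenesis and polymerase I lists were -1.16 and -1.25. Of 40 translation factors edgeR and DESeq2 called 0 (0 had an unadjusted edgeR p below 0.05), with Eef2 at 4180, 3970, 4060 and 3980 CPM.

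The rRNA rows were then set against gene counts. rRNA stood at 16.3 and 17.4 counts per gene count in the WT and 17.2 and 14.2 in the Mut-labelled libraries. The ranges overlapped: Mut-labelled replicate 2 was the lowest and Mut-labelled replicate 1 lay between the WT libraries. The log2 difference, Mut-labelled minus WT, was -0.11 (two-sided exact permutation p = 0.667, where 0.333 is the smallest that 2 against 2 libraries allow), and 0.03 without Mut-labelled replicate 2. The rRNA share of all counts was 94.2 and 94.5% in WT and 94.5 and 93.3% in Mut-labelled libraries, a difference of -0.46 percentage points (exact permutation p = 0.667). When the 3 rRNA rows were added to the gene table, edgeR gave log2 fold changes of -0.08 for 28S (SE 0.10, adjusted p = 0.796), 0.04 for 18S (SE 0.12, adjusted p = 0.924) and 0.00 for 5.8S (SE 0.19, adjusted p = 0.999).

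28S and 18S, the large RNAs of the 2 ribosome subunits, come from 1 precursor. The ratio of 28S to 18S counts was 6.73 and 6.67 in the WT and 6.11 and 6.19 in the Mut-labelled libraries. Both Mut-labelled values lay below both WT values, a log2 difference of -0.12 with replicates apart by far less, and the exact permutation p of 0.333 is the smallest possible here. No ratio of ribosome subunits can be read from it, since counts per RNA also depend on length and fragmentation, which were not measured.

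ERCC counts were higher relative to gene counts in the Mut-labelled libraries. There were 4.14 and 5.64 ERCC counts per 1000 gene counts in the WT and 7.72 and 13.6 in the Mut-labelled libraries, a log2 difference of 1.09 (exact permutation p = 0.333, the smallest possible). The groups did not overlap, although the Mut-labelled libraries differed from each other more than the WT libraries did. Of 92 ERCC transcripts 58 were detected and 16 had at least 20 counts in every library. Of these 16, 13 were higher per gene count in both Mut-labelled libraries than in either WT library. All were divided by the same 4 gene totals, so they repeat the summed ratio and are no separate support. Among all genes tested the groups were apart, in either direction, for 44.0%. Counts of rRNA per ERCC count were 3940 and 3080 in WT and 2230 and 1040 in Mut-labelled libraries (log2 difference -1.19, exact permutation p = 0.333). Gene counts per ERCC count were 242, 177, 130 and 73.3. In the mRNA libraries, ERCC counts per 1000 gene counts were 6.51, 3.13, 8.91 and 3.81 in the same order, so that the groups overlapped (log2 difference 0.37, exact permutation p = 0.667). ERCC was added to purified RNA, so recovery of RNA from the cells, the amount of spike-in added and RNA content per cell cannot be told apart in these ratios.

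**Figure D4:**
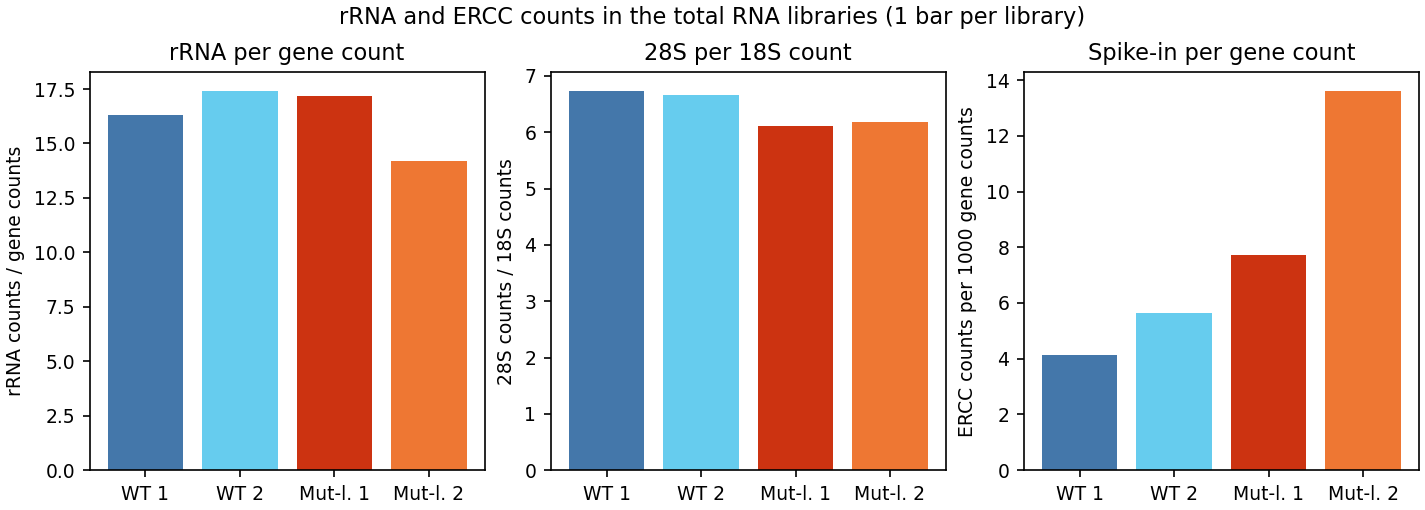
Each bar is 1 total RNA library (blue WT, red and orange Mut-labelled). The panels give rRNA counts per gene count, 28S counts per 18S count and ERCC counts per 1000 gene counts; the first overlaps between groups (14.2 to 17.4), while the second is lower and the third higher in both Mut-labelled libraries.

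Transcripts that polyA selection would largely remove were counted at high levels. The mitochondrial rRNA genes mt-Rnr2 (35800, 33900, 39800 and 37300 CPM) and mt-Rnr1 (24900, 23100, 26000 and 24300 CPM) were the most abundant of 9 mitochondrially encoded genes, of which edgeR and DESeq2 called 0 (0 had an unadjusted edgeR p below 0.05). Of 32 small nuclear, nucleolar and polymerase III RNAs 0 were called by edgeR or DESeq2 (4 at an unadjusted p below 0.05), with a median of 0.14. Without Mut-labelled replicate 1 the list had 1 fall and a median of -0.13, and without Mut-labelled replicate 2 it had 3 rises and a median of 0.41. Rn7sk, which holds the elongation factor P-TEFb inactive, was at 9120, 9890, 12200 and 9960 CPM, and Rpph1, the RNA of ribonuclease P, at 9850, 9870, 11800 and 9830 CPM. Terc, the telomerase RNA named after its values were seen, was at 51.6, 47.2, 25.4 and 32.1 CPM with the groups apart, but was not called (log2 fold change -0.77, edgeR adjusted p = 0.168). Small RNAs lie within introns or near repeats in part, and the use of strand and of multiply mapped reads in counting is not given in the sources used here, so these levels are uncertain.

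Many histone transcripts end in a stem-loop and carry no polyA tail. Of 51 histone genes 2 rose and 14 had an unadjusted p below 0.05, with a median of 0.16 (-0.88 under ERCC scaling). Of all 10546 genes tested 2.55% were called higher, and 1559 had an unadjusted p below 0.05. Without Mut-labelled replicate 1 the rises were 1 and the median 0.01, and without Mut-labelled replicate 2 they were 5 and 0.32. Hist1h2ac was at 101, 114, 199 and 159 CPM (log2 fold change 0.73, edgeR adjusted p = 0.0229), a call lost without WT replicate 1 (0.096) or Mut-labelled replicate 1 (0.204), and H3f3b, a replication-independent histone gene, was described above. Histone genes are near copies of each other, and reads may be split among them. Of 15 tested nuclear and host long noncoding RNAs 1 rose (0 to 3 when 1 library was left out): Meg3, an imprinted gene that lies in the same cluster as Dlk1, was at 8.59, 6.89, 21.1 and 40.3 CPM (log2 fold change 1.99, edgeR adjusted p = 0.0118, and 0.443 without Mut-labelled replicate 2). Malat1, a nuclear RNA, was at 3630, 5040, 4390 and 6080 CPM and was not called (edgeR adjusted p = 0.479). By annotated type, 265 of the 269 rises and 170 of the 177 falls were protein-coding genes, as were 9794 of the 10546 genes tested, and 0 of 55 tested snoRNA and scaRNA genes were called.

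The same contrast in the 4 mRNA libraries had 624 of 17128 tested genes called (3.64%), 300 higher (1.75%) and 324 lower (1.89%). The mRNA libraries held 35096252 to 37924699 gene counts each, against 967694 to 1218437 in the total RNA libraries. Depth and the genes tested differed, so these shares cannot be compared directly with those of total RNA. The mRNA libraries carry the same sample names, so they are read as the same sorted cells and are not independent. Beside the total RNA values, the mRNA log2 fold changes were 2.05 for Runx1, 2.04 for Itga2b, 4.26 for Slc35d3, -4.23 for Car1, -2.06 for Mecom and 4.33 for Cpa3, against 1.88, 1.98, 5.23, -4.31, -2.25 and 4.36. An interaction term over all 8 libraries tested whether the contrast differed between library kinds. With no block 0 of the 10546 genes were called (0%, with 450 at an unadjusted p below 0.05). That fit treated the 2 libraries of a sample as separate. Their replicate deviations correlated over genes at 0.386 for WT and 0.444 for Mut-labelled libraries. With the sample as a block, which these shared names allow, 36 genes were called, all with a more negative change in total RNA libraries.

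Of those 36 genes 9 belong to a list of 20 genes of duct-type epithelium, a cell type outside the gate, written after the values were seen. The list was chosen with these values known, so its counts of members describe it and are no test. Krt8, a keratin gene, was at 729, 532, 426 and 387 CPM in the total RNA libraries (log2 fold change -0.64, edgeR adjusted p = 0.0413) and at 157, 154, 274 and 236 CPM in the mRNA libraries (0.72, edgeR adjusted p = 0.0553). Spp1, a secreted phosphoprotein gene, was at 930, 451, 453 and 385 CPM and 190, 183, 313 and 284 CPM. Krt18 (988, 644, 608 and 537 CPM against 266, 278, 399 and 376 CPM) and Clu (1740, 961, 1020 and 873 CPM against 380, 387, 654 and 577 CPM) were named after their values were seen. In the total RNA libraries the groups did not overlap for Krt8 and Krt18 but did for Spp1 and Clu, and the change of Clu was -0.02 without WT replicate 1. The whole list summed to 5970, 3570, 3370 and 3080 CPM in the total RNA libraries, with WT replicate 1 the highest, and to 1380, 1390, 2250 and 2020 CPM in the mRNA libraries. All 13 tested members were below 0 in total RNA, with 2 called (Krt8 among them) and a median of -0.57. Of all 10546 genes tested, 5252 were above 0. The call of Krt8 was lost without WT replicate 1 or Mut-labelled replicate 2 (edgeR adjusted p = 0.483 and 0.134). Its source was not tested.

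**Figure D5:**
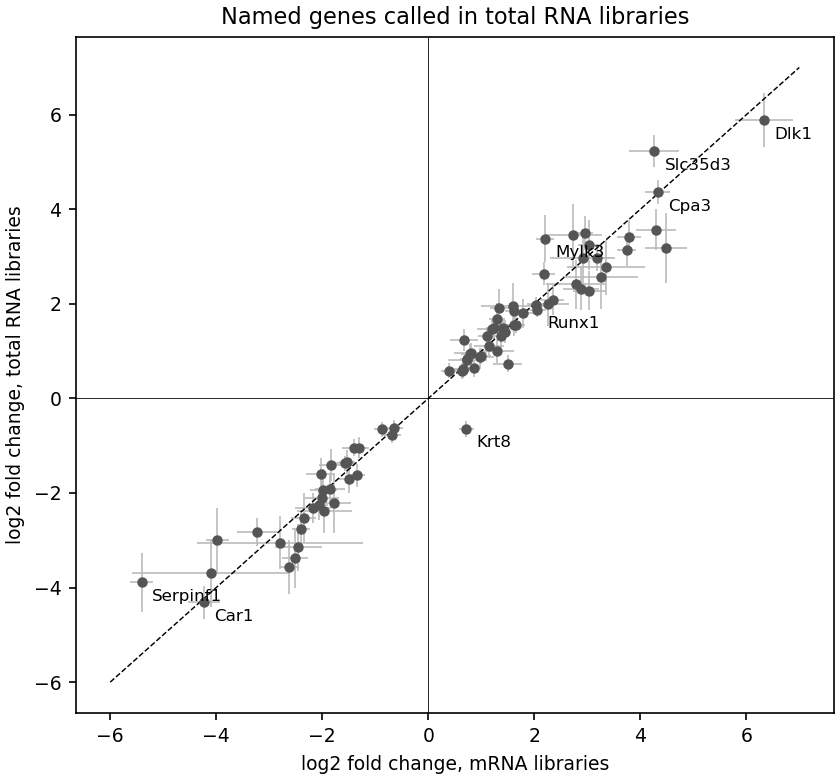
Each point is 1 of 81 named genes called in total RNA libraries, with its log2 fold change (Mut-labelled over WT) in total RNA libraries on the vertical and in mRNA libraries on the horizontal axis; bars are standard errors, the dashed line marks equal values, and genes with 3 or fewer counts in a group are left out. Krt8 lies apart, at -0.64 in total RNA and 0.72 in mRNA libraries.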

How the data were processed

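RNA was sequenced from sorted bone marrow cells in 4 total RNA and 4 mRNA libraries. The authors deposited raw read counts in 1 table of 38086 rows (37991 genes, 92 ERCC transcripts, 3 rRNA species); per the submitters' processing notes the build was mm9 and the tools TopHat, featureCounts and edgeR, with versions, strand use and multiply mapped reads not given in the sources used here. The preparation of the total RNA libraries beyond RNA purification and spike-in is likewise not given.

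rRNA and ERCC rows were left out of library totals and gene tests. Symbols came from a GENCODE M21 name table (32919 identifiers matched, 5 called ones did not and are not named). For the 2 groups of 2 total RNA libraries, edgeR 4.0.16 (R 4.3.3) gave the tests (TMM, the tool's filter on low counts, two-sided quasi-likelihood test, no block, Benjamini-Hochberg adjustment over all 10546 genes tested, called under 0.05). The script was tested on simulated data. Ratios of rRNA and ERCC were compared with exact permutation tests over libraries. Counting intervals are exact at 95% and cover counting error only, since reads carry no molecular identifiers.

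The comparison, 27 gene lists (687 tested members) and the named genes were chosen with earlier results of these data known. Named were the Runx list, the 12 largest rises and 12 largest falls among called genes with a mean of at least 10 CPM and groups that do not overlap, up to 6 called members and the 2 most abundant members of each list, the 10 most abundant called genes and the cell type markers; other names are marked, and some genes that the rule names are not reported here. Alternatives were other scalings (DESeq2 1.42.0 size factors, upper quartile, ERCC), the DESeq2 test, other filters, a replicate block, all 8 libraries in 1 fit, and leaving out each library.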

Additional observations from a re-analysis of the deposited data

How the results depend on the processing

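The count of 446 called genes lay between 381 and 598 when 1 library was left out, at 436 and 435 with DESeq2 size factors and upper quartile factors, and at 433 with at least 20 counts in each library of a group. It was 203 with the DESeq2 test, all among the 446, 724 with no filter on low counts, 273 with all 8 libraries in 1 fit, of which 259 were shared, and 373 under ERCC scaling, of which 166 were shared. Of 92 called genes named here, 49 kept call and direction in every alternative that gave a value, other than ERCC scaling, 28 lost their call with the DESeq2 test and 33 with all 8 libraries in 1 fit. The 71 called list members became 41 under ERCC scaling, 47 with the DESeq2 test and 44 with all 8 libraries. Shared replicate numbers pair samples across genotypes by number only (deviations correlated at 0.227). A replicate block gave 870 calls, with 122 list members. With the sample block 36 genes were called in the interaction, and 1 without Mut-labelled replicate 1.

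ERCC scaling moved the median gene by -1.10 and turned the sign of Apaf1 (-0.26), Btg1 (-0.51), Cbfa2t2 (-0.97), Cbfa2t3 (-0.91), Cbfb (-1.0), Cd34 (-0.86), Cdk6 (-0.30), Csf3r (-0.20), Dgkz (-0.52), Fli1 (-0.62), Fos (-0.25), Gata2 (-0.97), Gp9 (-0.54), H3f3b (-0.49), Hist1h2ac (-0.30), Ikzf2 (-0.17), Kit (-0.80), Malat1 (-0.84), Mdga1 (-0.23), Mki67 (-0.70), Mllt3 (-0.15), Mpo (-0.85), mt-Rnr1 (-1.01), mt-Rnr2 (-0.93), Rn7sk (-0.82), Rpph1 (-0.92), Rps3 (-1.01), Runx2 (-0.69), Runx3 (-0.47), Slamf1 (-0.38), Tal1 (-0.86), Tgfb1 (-0.49), Thbs1 (-0.06), Trp53 (-0.86). With all 8 libraries in 1 fit the changes of Eef2 (0.03) and Rpl4 (0.01) turned sign. Leaving out 1 library gave both signs for Cbfa2t2 (-0.07 to 0.28), Cbfa2t3 (-0.01 to 0.39), Col1a1 (-3.92 to 0.84), Eef2 (-0.05 to 0.02), Elane (-0.94 to 0.15), Gata2 (-0.03 to 0.35), Igkc (-3.53 to 0.94), Jchain (-3.57 to 1.15), Ly6a (-0.84 to 0.24), Mpo (-0.25 to 0.44), Mybbp1a (-0.29 to 0.01), Polr1a (-0.34 to 0.02), Rpl4 (-0.12 to 0.06), Ubtf (-0.23 to 0.10), Zfpm1 (-0.16 to 0.02), none of which was called. rRNA per gene count ranged from -0.25 to 0.03 and its share of all counts from -1.04 to 0.11 percentage points when 1 library was left out. edgeR put 18S at 0.04 and 5.8S at 0.00, and the shares of 18S and 5.8S alone differed by 0.87 and 0.01 points. The cause of these changes was not tested. With 3 counts at 2.47 to 3.17 CPM, the depth limits the genes of low level, and 10546 of 37991 gene rows had enough counts to test.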
